A study of Sus scrofa with 4 samples.

Results

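MCM3, MCM4, MCM6, POLE, DTL, UHRF1, KNTC1, BARD1 and ZNF367 are 9 genes that cells use when they copy and inherit their DNA. They were listed by name as a group of DNA replication genes with earlier results of these data known, and are all among the 10 leading genes of a cluster of organoid cells described further on, so that the list is not independent of the organoid data. They are 9 of 30282 genes counted in single cells of pig pancreas and of organoids grown from it, the porcine pancreatic ductal organoids (PPDO). Each gene was present as a gene feature and an extension of its 3' end, and both features were summed. In the order above the gene identifiers were ENSSSCG00000025488, ENSSSCG00000006273, ENSSSCG00000035564, ENSSSCG00000033051, ENSSSCG00000015600, ENSSSCG00000013517, ENSSSCG00000039546, ENSSSCG00000016170 and ENSSSCG00000028981. All 9 were detected in all 4 libraries.

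DNA is replicated in S phase. MCM3, MCM4 and MCM6 are subunits of the ring-shaped MCM helicase, which is loaded on origins in G1 and unwinds the double helix in S phase, and POLE is the catalytic subunit of the polymerase that copies the leading strand. DTL guides a ubiquitin ligase to the licensing factor CDT1 so that origins fire no more than once, and UHRF1 brings the maintenance methyltransferase to newly copied DNA. BARD1 is the partner of BRCA1 in repair of damaged forks and breaks, KNTC1 acts later, at the kinetochore in the spindle checkpoint, and ZNF367 is a zinc finger protein of the nucleus. TOP2A, a topoisomerase that untangles DNA, is used here as a marker of cycling cells because its level is high from late S phase to mitosis.

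The study compared organoids grown from pancreatic ducts with the tissue of origin. There were 2 PPDO libraries, each from a separate line, and 2 primary pancreas libraries, each from a separate pig. The study describes the organoid lines as late postnatal and adult. The ages by which its methods name them both fall in its late postnatal range. The lines differed in passage number, and the study states that most of their cells had by then moved to a less mature duct state. Levels given here for PPDO need not hold for PPDO of early passage. Which library is which line is not given. Primary pancreas 1 came from a wild type pig and was enriched for ducts by picking fragments by hand, and primary pancreas 2 came from a pig carrying INS-eGFP (eGFP driven by the pig insulin promoter) and pooled cells stained with the duct lectin DBA, eGFP-positive cells and unsorted suspension. This assignment takes the replicate numbers of the titles as the sample numbers of the methods. Both pigs were of the same late postnatal age and were processed on different days. The organoids grew in Cultrex with WNT3a, R-spondin1, noggin, EGF, FGF10, gastrin, A83-01, prostaglandin E2, Y-27632 and nicotinamide, so that a difference between organoid and tissue cannot be told apart from an effect of this medium. Live cells (7-AAD negative) of both kinds were sequenced with 10x 3' chemistry.

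After filtering, 8885 and 7337 PPDO cells with medians of 34176 and 34459 UMIs (unique molecular identifiers, each standing for a captured RNA molecule) were kept, and 5676 and 4274 primary cells with medians of 10177 and 23652 UMIs. Pairs of libraries shared 10 to 23 barcodes. Clusters of primary cells named by marker genes gave 2167 and 1189 ductal-like cells in primary pancreas 1 and 2, and these lay mostly in different clusters in the 2 pigs, with 1108 of the 1189 cells of primary pancreas 2 in a cluster that held 1 cell of primary pancreas 1. The primary libraries also differed in makeup, with 2213 endocrine-like cells in primary pancreas 2 against 101 in primary pancreas 1. In PPDO the 7 of 9 duct markers matched in the files were low, with a summed level of 970 and 867 CPM (counts scaled to a library total of 1000000 UMIs) against 25647 and 29525 CPM in the ductal-like cells. The tissue sum was mostly SLC4A4 (22522 and 25899 CPM, against 418 and 327 CPM in PPDO). KRT7 was closer between the groups, at 389 and 384 CPM in PPDO and 553 and 595 CPM in the ductal-like cells, while the defining duct gene CFTR was at 1.04 and 0.636 CPM against 952 and 794 CPM. The endocrine markers summed to 11.2 and 11.3 CPM in PPDO and to 153 and 8007 CPM in the ductal-like cells, where INS made up 7769 CPM in primary pancreas 2. The part of these cell mixtures in the results below was not tested.

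In PPDO, 8 of the 9 genes were higher than in primary ductal-like cells, and none was lower. All 9 are leading genes of a PPDO cluster, so these calls are no independent support for a difference between organoid and tissue. Over all 23543 genes tested 43.7% were called, 22.9% higher and 20.9% lower (edgeR's quasi-likelihood test on sums per library, Benjamini-Hochberg adjusted p under 0.05). The largest fitted differences were those of DTL, POLE and MCM6, and the median log2 fold change over the 9 was 1.81 beside 0.01 over all genes. The 9 genes together reached 81.4 and 93.9 CPM in the PPDO libraries against 36.2 and 36.8 CPM in the ductal-like cells. These values rest on 24492 and 24640 UMIs in PPDO and on 1566 and 935 UMIs in ductal-like cells. A sum over a library does not tell a larger share of expressing cells from more RNA in each cell, and the shares of cells are therefore given further on.

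Among the helicase subunits, MCM6 was measured at 21.4 and 25.5 CPM in PPDO and at 7.28 and 8.75 CPM in ductal-like cells. Its log2 fold change was 2.02 (SE 0.19, adjusted p = 0.00233 in edgeR). MCM6 thus lay above the ductal-like cells in both organoid libraries, a separation that was not counted over all genes. MCM4 stood at 9.43 and 10.9 CPM in PPDO and at 5.64 and 5.63 CPM in the tissue cells, and the log2 fold change was 1.30 (SE 0.22, adjusted p = 0.0110 in edgeR). MCM3 showed the smallest difference, with 5.92 and 7.13 CPM in PPDO and 4.58 and 5.36 CPM in ductal-like cells. Its log2 fold change of 0.86 (SE 0.23) passed the threshold in edgeR at an adjusted p of 0.0396. The call of MCM3 was lost with scaling to library totals in place of TMM (trimmed mean of M values), an alternative chosen after seeing the data, where its log2 fold change was 0.39 with an adjusted p of 0.308 in edgeR, and it was lost when any single library was left out (adjusted p 0.0654 to 0.252).

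POLE, the polymerase subunit, was measured at 3.50 and 4.37 CPM in PPDO and at 0.833 and 1.26 CPM in ductal-like cells, and its log2 fold change was 2.40 (SE 0.33, adjusted p = 0.00583 in edgeR). Both organoid libraries were above both tissue libraries, which again was not counted over all genes. DTL, the adaptor that marks CDT1 for destruction, was at 10.4 and 10.8 CPM in PPDO and at 2.41 and 2.60 CPM in ductal-like cells, which gave the largest log2 fold change of the 9 genes, 2.54 (SE 0.21, adjusted p = 0.00173 in edgeR). UHRF1 stood at 6.46 and 7.47 CPM in PPDO and at 3.15 and 2.84 CPM in ductal-like cells (log2 fold change 1.67, SE 0.27, adjusted p = 0.00935 in edgeR).

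The checkpoint protein KNTC1 was found at 10.7 and 12.04 CPM in PPDO and at 3.42 and 4.93 CPM in ductal-like cells (log2 fold change 1.92, SE 0.23, adjusted p = 0.00392 in edgeR). BARD1 was found at 5.61 and 7.12 CPM in PPDO and at 2.06 and 3.03 CPM in ductal-like cells (log2 fold change 1.81, SE 0.28, adjusted p = 0.00868 in edgeR). For both genes the organoid libraries lay above the tissue libraries, and which part of all genes does so was not counted. ZNF367 was the exception among the 9 genes. It was at 7.96 and 8.67 CPM in PPDO, and the ductal-like cells of the 2 pigs were far apart, at 6.85 CPM in primary pancreas 1 and 2.44 CPM in primary pancreas 2. The log2 fold change of 1.23 (SE 0.58) had an adjusted p of 0.153 in edgeR. Without primary pancreas 1 it was 2.30 with an adjusted p of 0.00587 in edgeR, and without primary pancreas 2 it was 0.60 with an adjusted p of 0.0810.

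**Figure D1:**
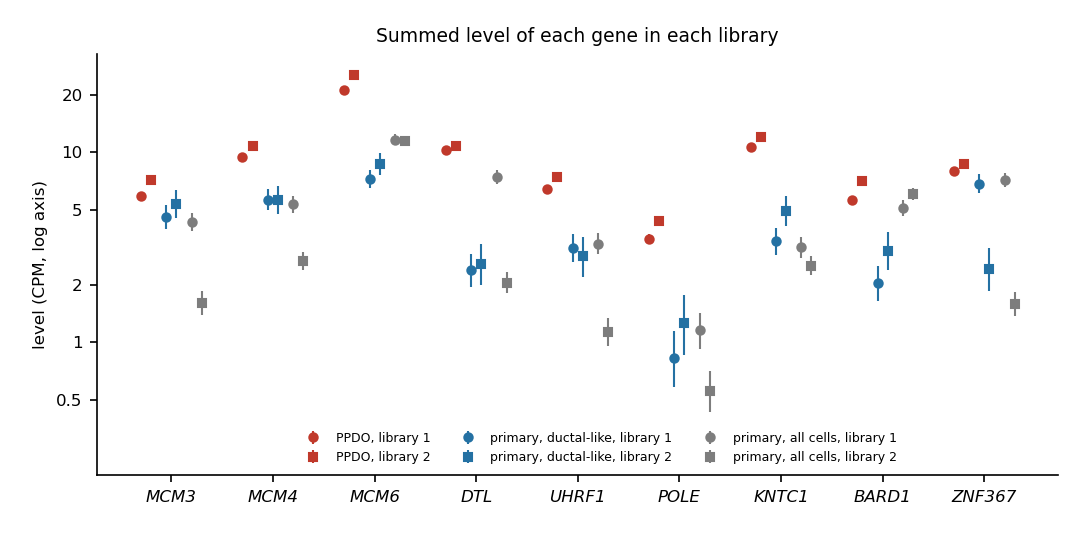
Level of each of the 9 genes in CPM (log axis) in the 2 PPDO libraries, the ductal-like cells and all cells of the 2 primary pancreas libraries, with bars for 95% Poisson intervals that cover counting error only. The PPDO points lie above both ductal-like points for all 9 genes, and for ZNF367 the ductal-like points are spread from 2.44 to 6.85 CPM. Which part of all genes separates in this way was not counted.

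The median log2 fold change over the 9 genes was 1.99 without PPDO 1 and 1.58 without PPDO 2, beside 1.81 with all libraries. It was 1.83 without primary pancreas 1 and 1.94 without primary pancreas 2. When either PPDO library was left out, fewer of the 9 genes and a smaller share of all genes were called. A lone library was then assumed to vary like the other group. TMM scaling raised the log2 fold changes by 0.46 over library totals, and the share of higher calls among all genes called was 52.3% with TMM and 31.9% with library totals. With library totals 7 of the 9 genes were higher.

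Set against all primary cells, a comparison that does not depend on the naming of clusters, 4 of the 9 genes were higher in PPDO. Of all 24759 genes tested 25.7% were called, 11.9% higher and 13.7% lower. The 4 genes were MCM4, MCM6, POLE and KNTC1. As the list is the same, these calls are no independent support either. KNTC1 was at 3.17 and 2.54 CPM in all primary cells (log2 fold change 2.30, adjusted p = 0.0187 in edgeR), and POLE was at 1.16 and 0.556 CPM (log2 fold change 2.57, adjusted p = 0.0287 in edgeR). DTL, far apart between the pigs at 7.43 CPM in primary pancreas 1 and 2.06 CPM in primary pancreas 2, did not pass the threshold (log2 fold change 1.57, adjusted p = 0.107 in edgeR). BARD1 was at 5.10 and 6.06 CPM in all primary cells, overlapping the PPDO libraries (log2 fold change 0.46, adjusted p = 0.404 in edgeR). MCM3 (adjusted p = 0.0804), UHRF1 (adjusted p = 0.0540) and ZNF367 (adjusted p = 0.185) also missed the threshold in edgeR. A fit with 1 PPDO library left out could not decide calls for any gene in this comparison. The median log2 fold change over the 9 genes was 1.72 without PPDO 1 and 1.54 without PPDO 2, beside 1.57 with all libraries. It was 2.26 without primary pancreas 1 and 1.46 without primary pancreas 2. In DESeq2 with all libraries, where 4468 of all 24759 genes were higher, the count of 4 became 7. With library totals it was 1, and the share of higher calls among all genes called was 46.5% with TMM and 23.4% with library totals.

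Within primary pancreas the 9 genes were not spread evenly over the cell classes. Immune-like cells had a summed level of 117 and 126 CPM in primary pancreas 1 and 2, above the ductal-like cells of both pigs, and TOP2A was at 88.5 and 87.0 CPM there. MCM6 in these cells was at 34.7 and 42.8 CPM, above both PPDO libraries. In primary pancreas 1 the level of the 9 genes in the immune-like cluster led by GNLY and CCL5, genes of cytotoxic lymphocytes, was 184 CPM with TOP2A at 191 CPM, and in primary pancreas 2 it was 72.5 CPM with TOP2A at 4.53 CPM. The cluster led by CD300C and with AIF1, a macrophage gene, differed from it, with the 9 genes at 108 and 123 CPM and TOP2A at 9.18 CPM in primary pancreas 1 and 118 CPM in primary pancreas 2. The immune-like cluster led by CCL8 and IL1A, with the macrophage genes MRC1 and C1QB, had the 9 genes at 79.0 CPM and TOP2A at 71.6 CPM in primary pancreas 1. TOP2A in immune-like cells was thus highest in different clusters in the 2 pigs. Acinar-like cells were at the low end with 23.0 CPM in both pigs, and endothelial-like cells were at 40.9 and 35.5 CPM. Clusters without a name (269 and 363 cells) were at 158 and 47.7 CPM. In primary pancreas 1 the unnamed cluster led by TM4SF20 (145 cells) was at 197 CPM on 138 UMIs. Its best marker list was that of duct, with 3 markers passed. It stayed unnamed for its low depth (median 1196 UMIs), and so is not among the ductal-like cells. The unnamed cluster led by CXCL9 (124 cells) was at 10.6 CPM on 2 UMIs. No test was run between classes, since the cells of all classes came from the same 2 libraries.

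In stellate-like cells DTL gave the largest part of the level of the 9 genes. Their summed level was 84.8 and 154 CPM, and DTL gave 40.9 and 104 CPM of it (274 and 45 UMIs), while TOP2A was at 1.04 CPM in primary pancreas 1 and had no UMI in primary pancreas 2 (where 3 UMIs, the limit that a count of 0 allows, would be 6.91 CPM). DTL was thus at a higher level in stellate-like cells than in either PPDO library (10.4 and 10.8 CPM). The 753 stellate-like cells of primary pancreas 1 held 48.5% of all DTL UMIs of that library, and the 48 of primary pancreas 2 held 18.4%. In primary pancreas 1 the signal was in the stellate-like cluster led by ITIH4, MYH11 and ACTA2, contractile genes of mural cells among them, where DTL was at 72.6 CPM in 439 cells. In the stellate-like cluster with DCN and LUM, matrix genes of fibroblasts, DTL was at 3.87 CPM in 314 cells. The extension feature held 5.84% and 4.44% of the DTL UMIs in stellate-like cells, so that most of its signal lay on the gene feature.

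BARD1 was another gene with classes above the PPDO level beside little TOP2A. It was at 14.7 and 17.4 CPM in acinar-like cells, at 14.3 and 27.6 CPM in stellate-like cells and at 13.2 CPM in the schwann-like cells of primary pancreas 1, which as class levels are above the PPDO libraries. The class levels hide differences between clusters. In primary pancreas 1 BARD1 was at 22.0 CPM in the acinar-like cluster led by CPB1 (185 cells) and at 1.13 CPM in that led by CELA2A (72 cells), and at 21.1 CPM in the stellate-like cluster with MYH11 and ACTA2 and 6.45 CPM in that with DCN and LUM, which is within the PPDO range. In the acinar-like cells the 37 and 22 UMIs of BARD1 were most of the 58 and 29 UMIs of the 9 genes, and MCM3 had no UMI in either pig (which allows up to 1.19 and 2.38 CPM). MCM6 was at 12.4 and 11.8 CPM in endocrine-like cells, close to its 11.7 and 11.5 CPM in all primary cells. TOP2A had no UMI in the endocrine-like cells of primary pancreas 1 (which allows up to 1.77 CPM) and was at 1.83 CPM in those of primary pancreas 2.

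**Figure D2:**
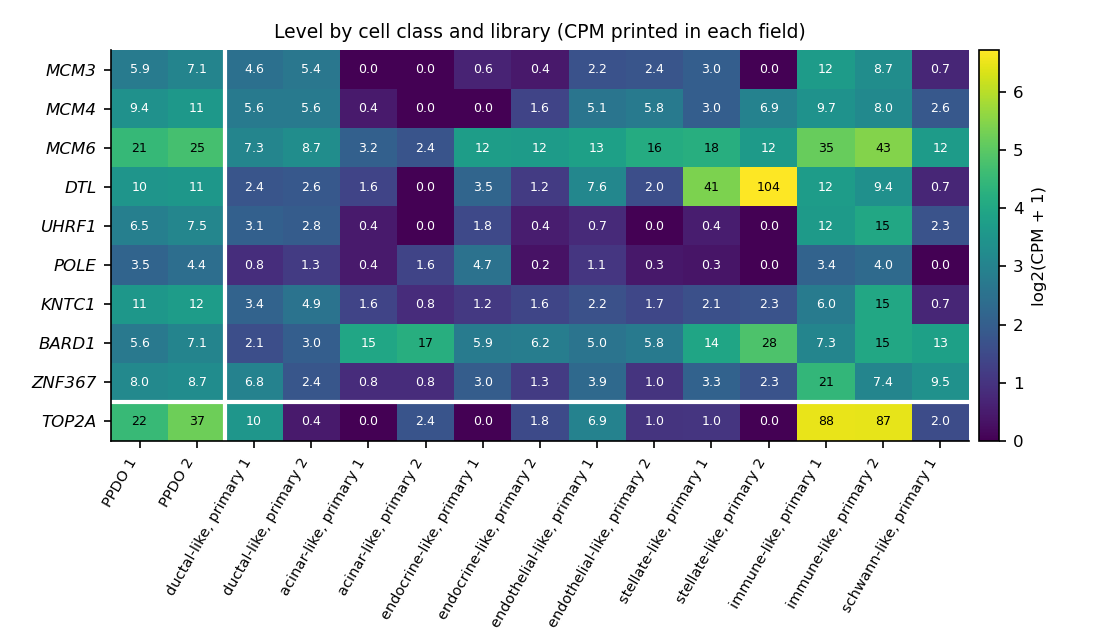
Colour map of the level of each of the 9 genes and TOP2A (genes down the side) in PPDO and in each named class of primary cells, per library (across), with the colour giving log2(CPM + 1) and the CPM printed in each field. DTL is highest in stellate-like cells at 40.9 and 104 CPM, TOP2A in immune-like cells at 88.5 and 87.0 CPM, and BARD1 is above the PPDO libraries in acinar-like cells.

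To compare shares of cells at matched depth, each cell was thinned to 3000 UMIs and shallower cells were left out. At this depth 12.2% of cells in PPDO 1 and 14.2% in PPDO 2 carried a UMI of any of the 9 genes (1073 of 8824 and 1037 of 7327 cells, with 95% Clopper-Pearson intervals of 11.5% to 12.9% and 13.4% to 14.97%). Of the ductal-like cells it was 7.50% and 6.39% (154 of 2054 and 76 of 1189, with intervals of 6.396% to 8.72% and 5.07% to 7.94%). The mean was 13.2% ± 1.41 (SD, n = 2) in PPDO and 6.94% ± 0.782 (SD, n = 2) in ductal-like cells. The groups did not overlap, and with 2 libraries in each the exact two-sided permutation test gave p = 0.33, the smallest it can give. Without thinning, which leaves the organoid cells deeper, the means were 52.2% and 32.0%. Each of the 9 genes taken alone was in a larger share of PPDO cells than of ductal-like cells in every pair of libraries at 3000 UMIs. Which part of all genes separates in this way was not counted, so this is a description only. At 6000 UMIs the groups overlapped for MCM3 (means 2.93% and 2.48%) and ZNF367 (2.98% and 1.72%), without the extension features they overlapped for ZNF367, and with at least 2 UMIs asked for they overlapped for MCM3 (0.137% and 0.0730%) and MCM6 (0.534% and 0.350%). The mean share ran from 0.799% (POLE) to 5.58% (MCM6) in PPDO and from 0.266% (POLE) to 2.26% (MCM6) in ductal-like cells. For DTL it was 2.25% against 0.418%. Against all primary cells BARD1 was in a smaller share of PPDO cells, with means of 1.51% and 2.16% and no overlap. DTL overlapped there (2.25% and 1.58%), and the other genes were in a larger share of PPDO cells without overlap.

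A UMI of these genes in a cell need not come from that cell, since free RNA is captured too and the counts are without correction for it. In acinar-like cells, with median depths of 7329 and 16292 UMIs beside 17846 and 20546 UMIs in ductal-like cells, 15 of 250 (6.0%) and 4 of 56 (7.14%) carried a UMI of any of the 9 genes at 3000 UMIs. Most of these carried BARD1, which was in 12 of 250 (4.80%) and 3 of 56 (5.36%) acinar-like cells against 0.682% and 0.673% of ductal-like cells. The other genes were near 0 in acinar-like cells, with MCM3, MCM4, UHRF1 and ZNF367 in 0 of 250 (which allows up to 1.20%) and 0 of 56 (up to 5.36%) and MCM6 in 1 of 250 and 0 of 56. In ductal-like cells MCM6 was in 2.34% and 2.19%, MCM4 in 1.27% and 0.925% and MCM3 in 1.12% and 0.925% of cells. DTL was in 0.584% and 0.252% and POLE in 0.195% and 0.336% of ductal-like cells, and each was in 1 of 250 and 0 of 56 acinar-like cells. In primary pancreas 1 the shares of MCM4, MCM6 and ZNF367 (1.70%) in ductal-like cells were above 1.20%, and those of the other 6 genes were under it. That limit holds for a count of 0, so it does not bound MCM6, DTL, POLE or BARD1 there. In primary pancreas 2 each of the 9 was under 5.36%. For most of the genes the ductal-like share could therefore not be told from background at this depth and number of acinar-like cells. At full depth in primary pancreas 1, MCM3, MCM4, MCM6, UHRF1 and ZNF367 were higher in ductal-like than acinar-like cells, with Poisson intervals apart. MCM3 was at 4.58 CPM (3.96 to 5.26) against 0 CPM (up to 1.46). MCM6 was at 7.28 CPM (6.50 to 8.14) against 3.18 CPM (1.37 to 6.26). BARD1 was lower there, and the intervals of DTL, POLE and KNTC1 overlapped. The part of free RNA in these levels was not tested. Cells with UMIs of 3 or more of the 9 genes were 1.76% and 1.98% of PPDO cells (155 and 145 cells), 0.243% and 0.336% of ductal-like cells (5 and 4 cells), 1.58% and 1.44% of immune-like cells, and 0 of 250 and 0 of 56 acinar-like cells, which allows shares of up to 1.20% and 5.36%. Stellate-like cells had any of the genes in 22.2% and 39.6% of cells but 3 or more in 1 of 698 (0.143%) and 0 of 48, which allows up to 6.25%. DTL alone was in 10.5% (73 of 698) and 27.1% (13 of 48) of the stellate-like cells.

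Within PPDO, cells with TOP2A carried these genes in a larger share than cells without. At 3000 UMIs TOP2A was found in 291 of 8824 cells of PPDO 1 (3.30%) and in 293 of 7327 cells of PPDO 2 (4.0%). Of these TOP2A cells 46.4% and 53.9% also carried any member of the 9 genes (95% Clopper-Pearson intervals 40.6% to 52.3% and 48.0% to 59.7%). Of the cells without TOP2A 10.99% and 12.5% did so (intervals 10.3% to 11.7% and 11.7% to 13.3%). Cells carrying both were 3.82 and 3.81 times as many as the product of the separate shares. This ratio depended on depth, and its mean over both libraries was 3.81 at 3000 UMIs, 2.46 at 10000 UMIs and 1.54 without thinning. In the other direction, 12.6% and 15.2% of the cells with any of the 9 genes had a TOP2A UMI, so that in most cells with a replication gene TOP2A was not detected at this depth.

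The overlap differed between the genes. UHRF1 was in 11.7% and 11.6% of TOP2A cells and in 1.17% and 1.29% of the other cells, which is 7.69 and 6.80 times the product of the shares. KNTC1 was in 17.9% and 17.1% of TOP2A cells, against 1.88% and 1.86% of the others. MCM6 had the weakest relation to TOP2A, found in 13.1% and 15.02% of TOP2A cells and in 4.88% and 5.63% of cells without, 2.54 and 2.50 times the product. Cells with TOP2A after thinning to 10000 UMIs had been deeper before it, with medians of 42661 and 44439 UMIs against 34854 and 34208 UMIs in cells without, and the part of cell size in the overlap was not tested. In primary pancreas there were 50 and 21 TOP2A cells, 23 and 7 of which carried any member of the 9 genes. Immune-like cells were 17 and 7 of these TOP2A cells, ductal-like cells 22 and 1, and the rest lay in other classes. Of all TOP2A UMIs of primary pancreas 2 at full depth, endocrine-like cells held 51.1%, immune-like cells 42.6% and ductal-like cells 3.28%. In primary pancreas 1 immune-like cells held 47.7% and ductal-like cells 41.6%, with no UMI in endocrine-like cells.

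**Figure D3:**
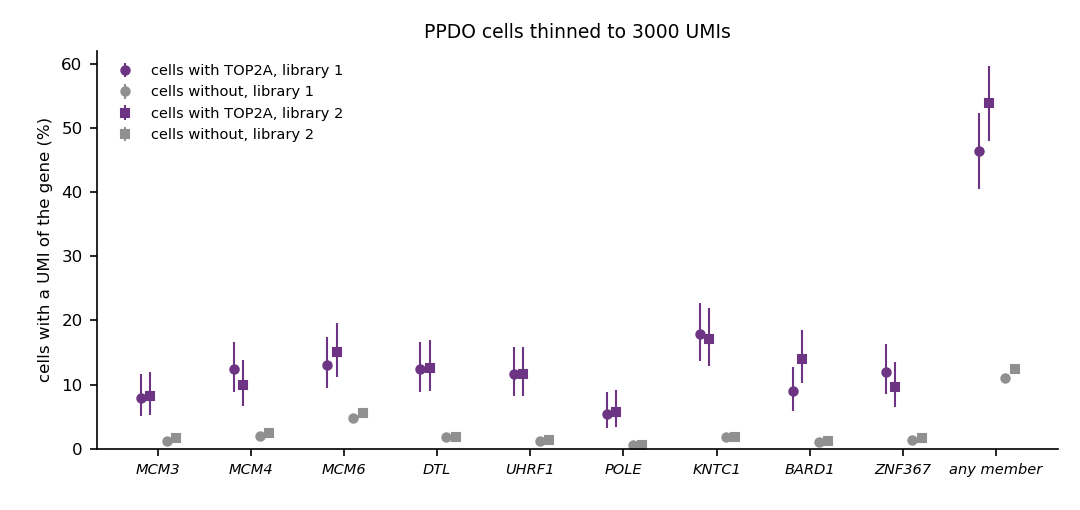
Share of PPDO cells (percent, thinned to 3000 UMIs) with a UMI of each gene among cells with and without TOP2A, per library, with 95% Clopper-Pearson intervals for counting error. Every gene is in a larger share of TOP2A cells in both libraries, and the points farthest right give any member of the 9, with 46.4% and 53.9% of TOP2A cells.

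When PPDO cells were thinned to 10000 UMIs instead, TOP2A was found in 464 and 541 cells, and the share of cells with TOP2A was larger among cells with more of the replication genes. Among cells with none of the 9 genes it was 2.59% (6215 cells) in PPDO 1 and 3.34% (5096 cells) in PPDO 2. With 1 gene it was 6.35% and 8.37%, with 2 genes 23.5% and 21.6%, and with 3 genes 31.2% and 38.2%. Cells with 3 or more were 406 and 469 in number, or 4.85% and 6.55% of PPDO cells, and 36.9% and 42.6% of them had TOP2A. The share did not go up at each step. With 4 genes it was 30.2% and 34.3%, below that with 3 genes in both libraries, and at 6 genes it was 47.1% in both (68 cells each). At 7 genes the libraries parted, with 43.3% of 60 cells in PPDO 1 and 61.1% of 54 cells in PPDO 2. In each library 25 cells carried 8 genes, and 7 and 2 cells carried all 9.

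**Figure D4:**
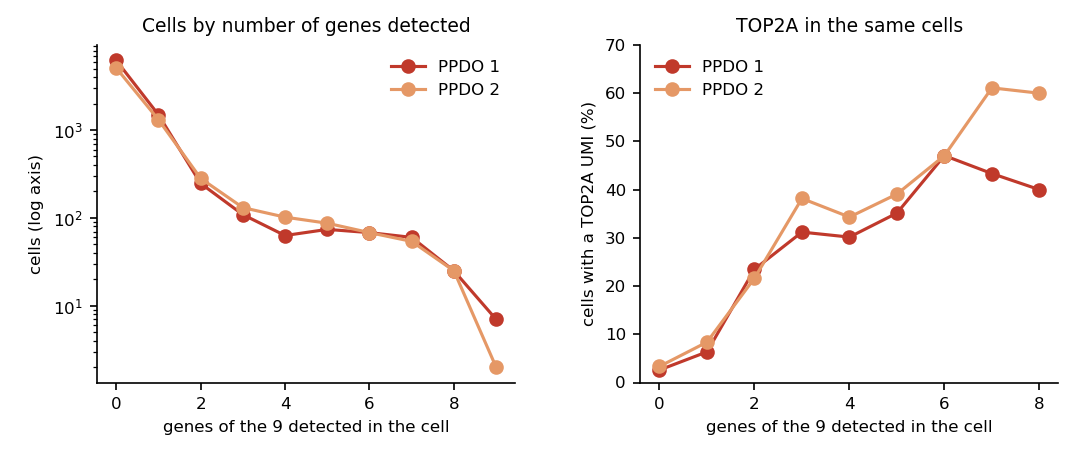
PPDO cells thinned to 10000 UMIs, by the number of the 9 genes with a UMI in the cell, with a line for each library. The left panel gives the number of cells (log axis) and the right panel, up to 8 genes, the percent of them with a TOP2A UMI, which goes from 2.59% and 3.34% in cells with none to 47.1% in both libraries at 6 genes and parts to 43.3% and 61.1% at 7 genes.

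How often the 9 genes were found together in the same PPDO cells is given as a description, since 9 of the 10 leading genes of a PPDO cluster already mark the same cells. Over the 36 pairs of the 9 genes, cells carrying both were 2.79 to 12.5 times (median 8.15) the product of the separate shares in PPDO 1 and 2.35 to 10.2 times (median 7.21) in PPDO 2. Cells with 3 or more had been deeper before thinning (medians 45436 and 45198 UMIs) than cells with none (33792 and 33615 UMIs). This depth difference is given as measured, and its part in the pairing of the genes was not tested.

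All 9 genes were higher in PPDO cells with TOP2A than in cells without. Over all 17751 genes tested 22.4% were called, 11.7% higher and 10.8% lower (edgeR on sums per library of cells thinned to 10000 UMIs, with the library as a block). Since the list matches the leading genes of a PPDO cluster, these calls are no independent support for a link with TOP2A, and the p-values are left out. KNTC1 had the largest log2 fold change, 3.41 (SE 0.11), and POLE, BARD1 and UHRF1 followed with 3.28, 3.17 and 3.11. ZNF367, DTL and MCM3 were at 2.98, 2.95 and 2.64. The smallest were MCM4 at 1.91 and MCM6 at 1.64. On levels at 3000 UMIs, the 9 genes together were at 391 CPM in TOP2A cells and 59.3 CPM in the other cells of PPDO 1, and at 418 and 68.0 CPM in PPDO 2. KNTC1 was at 69.9 and 72.8 CPM in TOP2A cells and at 7.03 and 7.53 CPM in the others, and MCM6 at 50.4 and 63.7 CPM against 17.5 and 20.7 CPM. The spread behind these calls is that between 2 libraries after the library difference was taken out, and both sums of a library share their culture.

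The difference between PPDO and ductal-like cells was measured again in cells with no TOP2A UMI at 3000 UMIs. Of the 9 genes 6 were higher in PPDO, which again is no independent support, since the list matches the leading genes of a PPDO cluster. Among the 16359 genes tested 49.5% were called, 25.3% higher and 24.3% lower. DTL had a log2 fold change of 2.63 (adjusted p = 0.00818 in edgeR) and MCM6 of 1.49 (adjusted p = 0.00423 in edgeR). POLE had 1.88, but it passed the filter for low counts only through its PPDO sums, so its p-value is left out. The ductal-like sums held few molecules, with 12 and 3 UMIs of DTL, 3 and 4 UMIs of POLE and 48 and 35 UMIs of MCM6. UHRF1, BARD1 and MCM4 were also higher, while MCM3 (0.89, adjusted p = 0.106), KNTC1 (1.31, adjusted p = 0.104) and ZNF367 (0.93, adjusted p = 0.241) did not pass the test in edgeR. With library totals 2 of the 9 genes were higher (higher calls were 51.0% of all calls with TMM and 34.3% with library totals). In DESeq2 3 of the 9 were, beside 3651 of the 16359 genes. Without PPDO 1 the median log2 fold change over the 9 genes was 1.51, and without PPDO 2 it was 1.26. A smaller share of all genes was called in both of these fits. With sums of unthinned cells 4 of the 9 genes were higher, where 10260 of 23007 genes were called, 5320 of them higher. The median log2 fold change over the 9 genes was 0.80 there and 1.31 with thinned cells. Absence of a TOP2A UMI at 3000 UMIs does not show that a cell was not cycling.

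Clusters of PPDO cells are described without a test, since these genes took part in defining them. A cluster led by DTL, ZNF367, UHRF1, KNTC1 and MMS22L held 349 and 333 cells, or 3.93% and 4.54% of PPDO cells, and carried 49.6% and 50.1% of all UMIs of the 9 genes at 892 and 845 CPM. TOP2A was at 53.6 and 59.8 CPM in it. The cluster led by CENPF, TOP2A, TPX2, HMMR and UBE2C, which are genes of mitosis, had 431 and 466 cells, with TOP2A at 350 and 413 CPM and the 9 genes at 238 and 232 CPM. The cells with 3 or more of the 9 genes fell mainly in the first of these clusters (63.3% and 62.9%), while the TOP2A cells fell mainly in the second (48.3% and 52.1%, against 18.5% and 20.1% in the first). Elsewhere the level of the 9 genes was 43.5 and 50.8 CPM in the WNT-like cluster, 25.6 and 32.6 CPM in a cluster led by IGFBP6 (named basal-like, but glycolysis-like when the cell cycle genes were left out of the clustering), 27.5 and 28.2 CPM in a basal-like cluster led by GPNMB, and 18.1 and 19.1 CPM in the glycolysis-like cluster. Of the cornified-like clusters, named for genes of terminally differentiated epithelium, the one led by PLXDC2 was at 12.9 and 14.0 CPM and the one led by S100A8, with 34 and 90 cells, at 4.90 and 21.2 CPM. The small ductal-like cluster of PPDO was at 83.5 CPM in PPDO 1 and 23.8 CPM in PPDO 2.

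**Figure D5:**
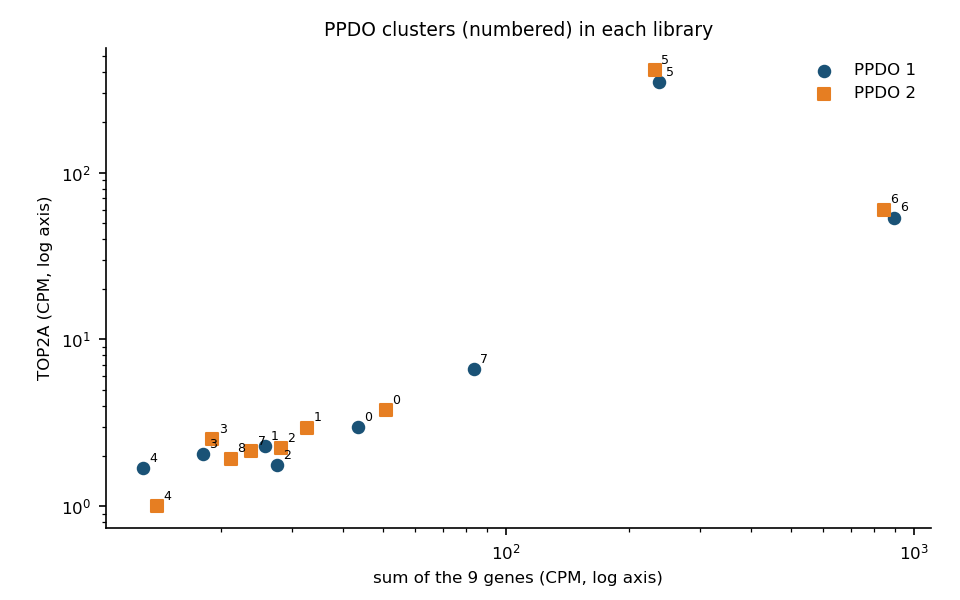
Each point is a PPDO cluster (numbered, at least 50 cells) in a library, with the summed level of the 9 genes in CPM on the horizontal log axis and TOP2A in CPM on the vertical log axis. Cluster 6, led by DTL, lies farthest right at 892 and 845 CPM, and cluster 5, led by CENPF, lies highest at 350 and 413 CPM of TOP2A.

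The genes whose pattern over these clusters was most like the mean of the 9 were MMS22L, GINS1, BRCA1, HAUS1, MCM7, CLSPN, GINS2, ZGRF1, BRCA2 and MCM5. Their Pearson correlations ranged from 0.976 to 0.984 over 17 sums, each of a cluster in a library, which share library and depth, and are given as a description. PCNA, the sliding clamp of the polymerases, had 0.971, TOP2A 0.849 and the basal cell factor TP63 0.282. The 9 genes themselves ranged from 0.944 (MCM6) to 0.996 (POLE).

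Of 50 other replication genes tested, 24 were higher and 6 lower in PPDO than in ductal-like cells, with a median log2 fold change of 0.69. Of all genes tested in this comparison 22.9% were higher and 20.9% lower. TICRR, an initiation factor, was at 37.2 and 48.6 CPM in PPDO and at 0.624 and 0.670 CPM in ductal-like cells (log2 fold change 6.51, SE 0.27, adjusted p = 0.000461 in edgeR). ORC1, a subunit of the origin recognition complex, was also higher, at 5.04 and 6.14 CPM against 0.740 and 0.433 CPM. The histone chaperone ASF1B was called higher on few molecules in tissue (234 and 349 UMIs against 5 and 0). It passed the filter for low counts only through its PPDO sums, so this call is no support. GMNN, which holds CDT1 inactive, went the other way, at 12.5 and 16.5 CPM in PPDO and 357 and 280 CPM in ductal-like cells (log2 fold change -4.01, SE 0.31, adjusted p = 0.00149 in edgeR). Of the other helicase subunits MCM2 and MCM5 were higher (log2 fold changes 1.07 and 1.09), while MCM7 had a log2 fold change of -0.03 with an adjusted p of 0.899 in edgeR. PCNA was at 47.8 and 52.7 CPM in PPDO and at 39.1 and 39.5 CPM in ductal-like cells (log2 fold change 0.81, adjusted p = 0.0175 in edgeR). With library totals 10 of the 50 genes were higher and 8 lower, with a median of 0.20. Fewer were called higher when PPDO 1 or PPDO 2 was left out, where a smaller share of all genes was called too.

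All 6 genes tested of nucleotide supply were higher in PPDO (22.9% of all genes were), with a median log2 fold change of 1.85. TYMS, which makes thymidylate, was at 61.3 and 76.0 CPM in PPDO against 12.7 and 13.9 CPM in ductal-like cells, and DUT, which clears dUTP, at 168 and 183 CPM against 50.3 and 55.4 CPM. CTPS1, which makes CTP, was at 12.6 and 12.2 CPM against 1.34 and 0.394 CPM, and the thymidine kinase TK1 at 15.95 and 16.9 CPM against 8.88 and 6.82 CPM. Without PPDO 2 this count was smaller, as was the share of all genes called.

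Of 21 regulators of the step from G1 to S phase, 8 were higher and 3 lower, beside 22.9% and 20.9% of all genes. The median log2 fold change was 0.62, and 0.16 with library totals. The transcription factors E2F8, E2F2 and E2F3 were higher by log2 fold changes of 3.85, 3.79 and 3.63. The lower genes were CDKN2C and CDKN1B, both inhibitors of cyclin-dependent kinases, and the phosphatase CDC25A, with log2 fold changes of -3.75, -1.03 and -1.09. CDKN2C was at 2.46 and 1.72 CPM in PPDO and at 33.4 and 44.4 CPM in ductal-like cells. The other such inhibitor of the list, CDKN1A, lay the other way in level. It was at 208 and 213 CPM in PPDO and at 51.5 and 1.58 CPM in ductal-like cells. Leaving out PPDO 1 or PPDO 2 left fewer of these regulators called higher, and a smaller share of all genes called.

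Of 18 S phase repair genes 7 were higher and none lower, beside 22.9% and 20.9% of all genes. With library totals 5 were higher and 1 lower, and the median log2 fold change went from 0.83 to 0.37. XRCC2, EXO1 and BRIP1 had log2 fold changes of 2.21, 1.84 and 1.57. Leaving out PPDO 1 or PPDO 2 left fewer repair genes called higher, and a smaller share of all genes called. Of 46 mitosis genes 31 were higher and 1 was lower, beside 22.9% and 20.9% of all genes, with a median of 2.67. DLGAP5, BUB1, UBE2C and CENPE had log2 fold changes of 4.47, 3.91, 3.81 and 3.80, and the lower gene was the condensin subunit NCAPH at 4.62 and 5.28 CPM against 31.8 and 41.8 CPM. Without PPDO 2 the mitosis count was smaller, as was the share of all genes called. Within PPDO, cells with TOP2A had 48 of 50 replication genes, 6 of 6 nucleotide supply genes, 17 of 18 repair genes and 45 of 45 mitosis genes higher than cells without, with medians of 1.66, 0.90, 2.24 and 3.76 on the log2 scale. Of the 21 regulators of the step from G1 to S phase 17 were higher and 3 lower (median 0.66). Of all genes in this comparison 11.7% were higher and 10.8% lower. TOP2A itself was not counted. As the cells were split by this marker of cycling cells, these counts of cell cycle genes are no independent support.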

How the data were processed

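The sample titles gave each library its group and replicate number. The authors counted reads of 10x 3' libraries with Cell Ranger, using their own pig annotation (the submitters' processing notes also name Sscrofa11.1 and GRCh38). The deposited matrices hold unnormalized UMI counts for each feature in each barcode, and further deposited tables name the barcodes and the features. The study's later correction for free RNA (SoupX) is not in these counts. The 56060 features were summed to 30282 genes.

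PPDO cells had at most 3% mitochondrial UMIs and 1000 to 9000 features. Primary cells had at most 8%, and at least 400 features in primary pancreas 1, or 800 features and 3000 UMIs in primary pancreas 2. Scrublet scores over 0.25 in primary pancreas 1 and over 0.15 in primary pancreas 2 led to removal (84 and 141 cells). In PPDO 142 and 83 cells had scores over 0.25 and were kept. Cells were clustered with Scanpy 1.11.5 (2000 variable genes, 20 components, leidenalg 0.10.2, resolution 0.5) and named by marker lists. A name needed at least 3 markers, and a cluster with 3 or more cell cycle genes among its 10 leading genes stayed unnamed. So did a cluster of low depth with no marker of its best list among these 10 genes. These naming rules were set once the clusters were known.

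Sums per library were tested with edgeR 4.0.16 (TMM, filterByExpr, quasi-likelihood test, Benjamini-Hochberg over all genes at 0.05) in R 4.3.3, with DESeq2 1.42.0 as an alternative. Only the edgeR steps of the ductal-like and TOP2A designs were run on simulated data, with 1 fixed spread for all genes and without filterByExpr. Cells were not used as replicates. The p-values measure the spread between 2 libraries in each group. Poisson and Clopper-Pearson intervals (95%) cover counting error only. Thinning drew 3000 or 10000 UMIs per cell without replacement (numpy 2.4.6, seed 1), and at 10000 UMIs 522 and 176 PPDO cells were left out. The 9 genes, the pathway lists and the tests were chosen with earlier results of these data known. From each pathway list the 4 called genes with the largest absolute log2 fold change were named, and all genes of a direction with 5 or fewer, apart from an item that is not reported here. MCM2, MCM5 and MCM7 were named as the other helicase subunits, and CDKN1A as the other kinase inhibitor of its list, after their values had been seen. POLE2, RRM2, MKI67, CCNA2 and AURKA were not matched and are not analysed here. No sequences were used here.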

Additional observations from a re-analysis of the deposited data

How the results depend on the processing

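With 2 libraries in each group, calls near the threshold depended on single libraries. Leaving out each replicate in turn gave 4 to 8 of the 9 genes higher against ductal-like cells, 0 to 8 against all primary cells, 2 to 5 in cells without TOP2A, and 28 to 88 of the pathway genes, where 76 were higher with all libraries. Against all primary cells the count of 4 became 7 in DESeq2, 1 with library totals (an alternative chosen after seeing the data) and 0 in the edgeR fit with a replicate block. Over all 24759 genes, 2955 were higher in the main fit, 4468 in DESeq2, 1017 with library totals and 783 with the block. In cells without TOP2A the count of 6 became 4 with sums of unthinned cells, 3 in DESeq2 and 2 with library totals. Over all 16359 genes, 4136 were higher in the main fit, 3651 in DESeq2 and 2670 with library totals. Deviations of same-numbered libraries had a correlation of -0.0114 and the numbers stand for different animals, so they do not pair the samples. With the replicate block 7 of the 9 genes were higher against ductal-like cells and 4 in cells without TOP2A, and 4 in place of 7 repair genes. Over all genes 4302 of 23543 were then higher against ductal-like cells and 3565 of 16359 in cells without TOP2A. For TOP2A cells all 9 genes were called under every alternative run, although over all genes 3985 were called with the library block, 645 without it, 2043 in DESeq2 and 2026 at 3000 UMIs.

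The difference in the share of cells with any of the 9 genes, 6.21 percentage points, was 20.2 without thinning and 3.39 when at least 2 UMIs were asked for. The overlap with TOP2A, 3.81 times the product of the shares, was 1.54 without thinning, 2.46 at 10000 UMIs, 4.35 with at least 2 TOP2A UMIs and 3.77 with PPDO doublets removed. The planned restriction to ductal-like clusters with at least 50 cells in both pigs left no cluster and gave no value. Shares at 3000 UMIs count cells with a UMI, not cells that express a gene.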
